A study of Mus musculus with 6 samples.

Results

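A set of 10 genes of the cytotoxic lymphocyte machinery was followed through bulk RNA-seq of tumors labelled MC38, chosen by their names in the deposited table: Gzma, Gzmb, Gzmk, Prf1, Nkg7, Ncr1, Klrk1, Klrd1, Klrb1c and Eomes. All 10 names were found among the 33965 genes of that table, 1 entry each. By name MC38 is a colon carcinoma cell line of the mouse. The labels and methods describe it as inoculated under the skin of the right flank of female C57BL/6 mice, about 6 weeks old when obtained, whose immune system is intact. The tumors were 3 PBS-treated controls and 3 treated with GB2, and no other agent or genetic change is named for either group. GB2 is a prodrug in which the STING agonist MSA-2 is linked to artesunate, used as a TREM2 inhibitor, through a disulfide bond that glutathione cleaves. For the MC38 model the intravenous dose is 10 mg/kg, but the dose and the time of collection of the sequenced tumors are not given separately in the sources used here. The comparison asks whether RNA of cytotoxic lymphocytes differed between treated and control tumors, and since the labels do not say that each tumor came from its own mouse, the p values measure the spread between these tumors.

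Natural killer (NK) cells and CD8+ T cells kill through secretory granules. Perforin, the product of Prf1, opens pores in the target membrane, and granzymes, serine proteases encoded by the Gzm genes, pass through them and set off cell death. NK cells are told apart from T cells by receptors such as NKp46 (Ncr1) and, in C57BL/6 mice, NK1.1 (Klrb1c), whereas NKG2D (Klrk1) and CD94 (Klrd1) are carried by NK cells and by activated CD8+ T cells. Eomes encodes a T-box transcription factor of both lineages. In whole tumor RNA, fewer cells of a type and less RNA per cell cannot be told apart.

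The RNA of the tumors went against the label of a colon carcinoma. Pigment cell genes, picked after their values were seen, were high in all 6 libraries. The 8 genes Tyr, Tyrp1, Dct, Pmel, Mlana, Sox10, Mitf and Pax3 summed to 3008 to 5204 FPKM per tumor, against 2.29 to 4.90 FPKM for 7 epithelial genes (Epcam, Krt8, Krt18, Krt19, Cdh1, Vil1 and Cdx2). Dct, an enzyme of melanin synthesis, was at 4901 to 8046 CPM in the PBS tumors and 4097 to 6007 CPM in the GB2 tumors, and by mean FPKM Tyrp1 ranked 16 among all 33965 genes. For none of the 8 did the groups separate, and their adjusted p values in edgeR were at least 0.757. Cdx2, the intestinal transcription factor, was at 0 in 5 tumors and at 3 counts in PBS tumor 3. The tumors are therefore named below by their labelled treatment alone, and which cells made up the tumors was not tested.

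RNA of the 10 cytotoxic genes was scarce in every tumor. The libraries held 64764405 to 69878156 estimated counts in the PBS tumors and 81210553 to 83690056 in the GB2 tumors. About 4 counts were taken as 1 read pair, because counts of 4 were more frequent than counts of 3 or 5. The reason is not given in the sources used here. Counts of 1 (5446 values) and 2 (4996 values) were also common, so this unit is approximate. The highest count of any of the 10 genes was 102, about 25.5 read pairs. A count under 12 (3 read pairs) was treated as under the detection limit. In CPM, counts scaled to the library size, this limit was 0.170 to 0.203 for PBS and 0.141 to 0.144 for GB2. Every GB2 library was deeper than every PBS library, so raw counts and numbers of genes under the limit are not on an equal scale between the groups. By the mean FPKM over the 6 tumors, which allows levels of different genes to be compared, the order was Nkg7 (0.402), Gzmb (0.362), Gzma (0.152), Prf1 (0.147), Klrd1 (0.121), Eomes (0.109), Gzmk (0.10), Klrk1 (0.0307), Klrb1c (0.0269) and Ncr1 (0.0027). Every neighbouring pair in this order had overlapping ranges over the tumors, so the order is not resolved beyond their spread. The count filter for testing was passed by 8 genes, and Ncr1 and Klrb1c were not tested.

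Gzmb (ENSMUSG00000015437) encodes granzyme B, which cleaves caspases, and lies on chromosome 14 from 56496295 to 56499717 in the coordinates of the deposited table. PBS tumors 1, 2 and 3 held 4, 64 and 0 counts of it, against 42, 46 and 102 for GB2 tumors 1, 2 and 3. PBS tumor 2 therefore lay above GB2 tumors 1 and 2, and the groups overlapped. The mean was 0.325 ± 0.506 CPM (SD, n = 3) in PBS and 0.751 ± 0.390 CPM (SD, n = 3) in GB2 tumors. The fitted log2 fold change was 1.20 (standard error, SE, 1.31; adjusted p 0.845 in edgeR). As a measure of read coverage and not of level, its mean CPM was above that of 19.8% of the genes tested, the highest such share among the members. It sits in a cluster of closely similar granzyme genes, so the assignment of its reads could not be checked from the counts.

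Prf1 (ENSMUSG00000037202; chromosome 10, 61133612 to 61140459) had counts of 4, 32 and 4 among the controls, against 20, 28 and 102 for GB2. GB2 tumor 3 stood above the rest, and PBS tumor 2 was above GB2 tumors 1 and 2, as for Gzmb. The mean was 0.193 ± 0.226 CPM (SD, n = 3) in PBS and 0.592 ± 0.529 CPM (SD, n = 3) in GB2 tumors. The fitted log2 value of 1.60 (SE 1.0) was the highest among the 8 genes tested, with an unadjusted p of 0.152 and an adjusted p of 0.765 (edgeR). An exact two-sided permutation test of its CPM over the 6 tumors gave p = 0.3, where 0.1 is the smallest value that 3 against 3 allow.

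Gzma and Gzmk encode granzymes A and K, tryptase-like proteases, and lie near each other on chromosome 13 (Gzma from 113230359 to 113237515, Gzmk from 113308142 to 113362442). Gzma had counts of 0, 16 and 4 among the controls, against 8, 22 and 27 for GB2, with only PBS tumor 2 reaching into the GB2 range. The log2 fold change of Gzma was 1.22 (SE 1.18, adjusted p 0.822 in edgeR). Gzmk had counts of 11, 17 and 0 among the controls, against 0, 5 and 35 for GB2. For Gzmk the mean levels were nearly the same, 0.142 ± 0.126 and 0.157 ± 0.222 CPM (SD, n = 3 each), and GB2 tumor 3 alone held most of the GB2 counts. Its log2 fold change was 0.15 (SE 1.60, adjusted p 0.984). Nkg7 (chromosome 7, 43086497 to 43087673) encodes a membrane protein of the granules that is needed for their release, and had counts of 28, 40 and 0 in PBS tumors against 12, 38 and 60 in GB2 tumors. The groups overlapped almost fully, and the log2 fold change of Nkg7 was 0.33 (SE 1.21, adjusted p 0.948).

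**Figure D1:**
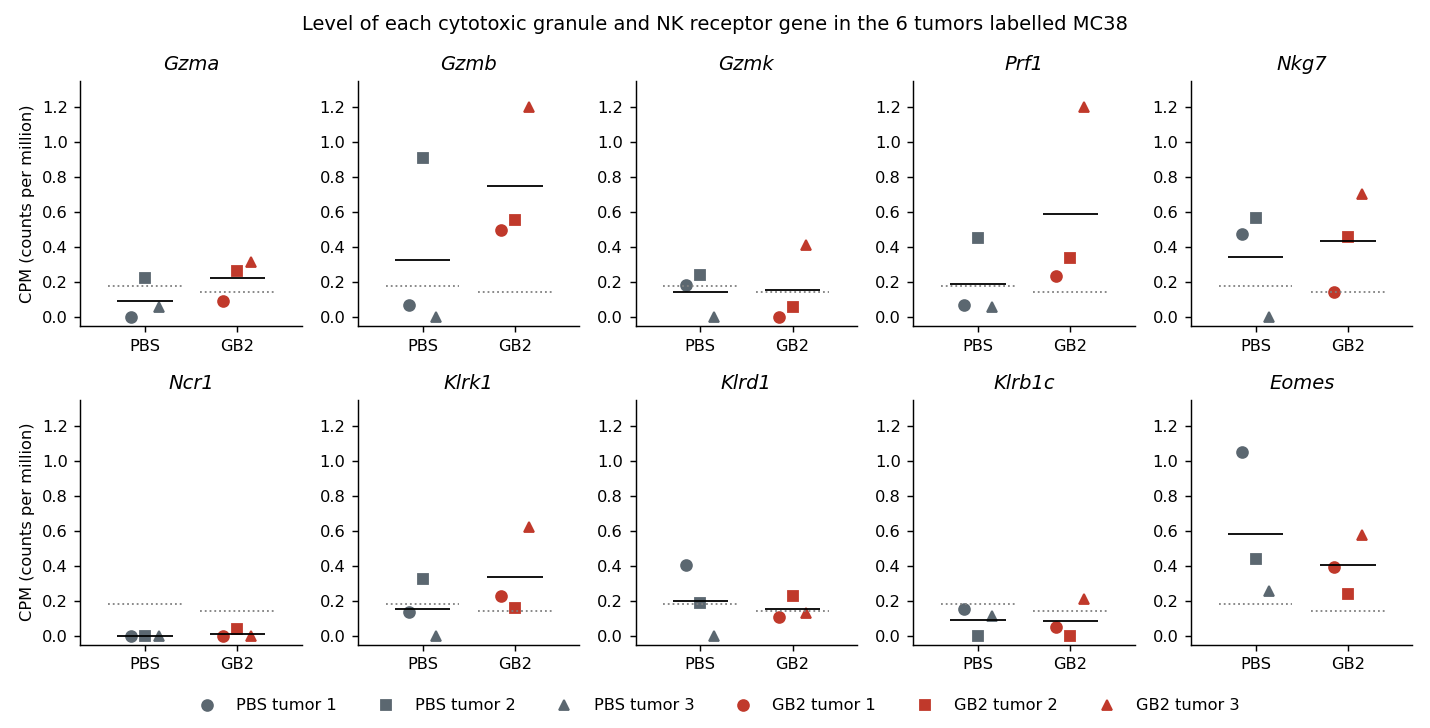
CPM of each of the 10 genes (vertical axes, the same scale in every panel) in PBS and GB2 tumors, with 1 point per tumor, black lines at the group means and dotted lines at the mean detection limit of 3 read pairs in the group. GB2 tumor 3 is the highest tumor in 7 of the 10 genes, PBS tumor 3 is at 0 in 6, and the groups overlap or tie in all 10.

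The promoters of the granule genes are shown because Eomes (a T-box factor) and Runx3 belong to the known regulators of this gene set and both were measured here. RefSeq promoter entries (GRCm38.p6) were matched by symbol for 9 of the 10 genes, without Klrd1. The 250 bases before the start site were searched on both strands for AGGTGT, the core of the T-box motif, and for TGTGGT, the core of the RUNX motif, and the motifs can overlap by the letters TGT. TGTGGT was present in 7 of the 9 genes (Gzma, Gzmb, Prf1, Nkg7, Ncr1, Klrk1 and Klrb1c) and in 14.1% of all 32851 promoter entries. AGGTGT was present in 4 of the 9 genes (Gzma, Gzmk, Prf1 and Nkg7) and in 11.8% of all entries. Counted by entry, as the shares over all entries are, TGTGGT was in 8 and AGGTGT in 4 of the 10 entries of these genes. No test was made of these numbers. The 3 sequences below run 5′ to 3′ on the gene's own strand up to the base before the start, with matches to either motif in capitals. They belong to the granule genes with the highest mean count and with either 2 RUNX cores (Gzmb, minus strand, chr14:56262335-56262584) or a RUNX and a T-box core (Prf1, plus strand, chr10:61297586-61297835, and Nkg7, plus strand, chr7:43436888-43437137).
Gzmb: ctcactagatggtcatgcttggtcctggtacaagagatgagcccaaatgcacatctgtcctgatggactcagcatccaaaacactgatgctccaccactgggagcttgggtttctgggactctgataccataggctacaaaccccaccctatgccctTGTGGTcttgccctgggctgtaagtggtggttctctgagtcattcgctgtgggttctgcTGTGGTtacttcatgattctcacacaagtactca
Prf1: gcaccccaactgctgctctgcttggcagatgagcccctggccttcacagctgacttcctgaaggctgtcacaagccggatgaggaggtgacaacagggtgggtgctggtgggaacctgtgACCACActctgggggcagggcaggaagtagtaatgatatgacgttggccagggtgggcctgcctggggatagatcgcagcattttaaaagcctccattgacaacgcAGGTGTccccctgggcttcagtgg
Nkg7: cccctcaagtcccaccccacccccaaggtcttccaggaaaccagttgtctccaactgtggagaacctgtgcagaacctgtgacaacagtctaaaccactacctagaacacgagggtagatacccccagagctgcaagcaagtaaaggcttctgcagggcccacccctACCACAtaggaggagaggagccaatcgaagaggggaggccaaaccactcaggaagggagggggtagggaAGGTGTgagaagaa
In Gzmb the RUNX cores lie 93 to 88 and 34 to 29 bases before the start, in Prf1 the RUNX core lies 130 to 125 and the T-box core 24 to 19 bases before it, and in Nkg7 they lie 83 to 78 and 14 to 9 bases before it. The letters describe these windows, and binding was not measured.

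The receptors that define NK cells were under the detection limit in all but 1 of their 12 values. Ncr1 (chromosome 7, 4340723 to 4348163) had a count of 0 in 5 tumors and of 3, less than 1 read pair, in GB2 tumor 2. All 6 values lie under the detection limit of 3 read pairs, so NKp46 RNA was not detectable at this depth, and no fold change is given. Klrb1c (chromosome 6, 128755448 to 128766178) had counts of 9, 0 and 8 among the controls, against 4, 0 and 18 for GB2. Only GB2 tumor 3 passed the detection limit for Klrb1c, with about 4.5 read pairs.

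The receptors shared with CD8+ T cells were detected more often. Klrk1 (chromosome 6, 129587286 to 129600827), which encodes the activating receptor NKG2D, had counts of 8, 23 and 0 among the controls, against 19, 13 and 53 for GB2. Its order over the tumors resembled that of Prf1, with GB2 tumor 3 at the top, PBS tumor 2 next and PBS tumor 3 at the bottom. The mean was 0.154 ± 0.164 CPM (SD, n = 3) in PBS and 0.335 ± 0.252 CPM (SD, n = 3) in GB2 tumors, with a log2 fold change of 1.11 (SE 1.20, adjusted p 0.842 in edgeR). Klrd1 (chromosome 6, 129568745 to 129575738) encodes CD94, the partner chain of NKG2 receptors, and had counts of 24, 13 and 0 among the controls, against 9, 19 and 11 for GB2. Here PBS tumor 1 was the highest and GB2 tumor 3 was in the middle. The log2 fold change of Klrd1 was -0.33 (SE 1.21, adjusted p 0.948).

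Eomes (ENSMUSG00000032446; chromosome 9, 118307280 to 118315200) was the only member over the detection limit in all 6 tumors. The controls held 62, 31 and 18 counts, against 33, 20 and 49 for the GB2 tumors. The highest value was that of PBS tumor 1, in which Gzmb and Prf1 were each at 4 counts, Gzma was at 0, Gzmk at 11 and Nkg7 at 28. The mean was 0.581 ± 0.415 CPM (SD, n = 3) in PBS and 0.403 ± 0.168 CPM (SD, n = 3) in GB2 tumors, with a log2 fold change of -0.52 (SE 0.66, adjusted p 0.864).

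Across the 8 genes tested, 6 had a positive and 2 a negative log2 fold change, and the median was 0.72, beside -0.02 over all 19602 genes tested. With the adjusted limits (adjusted p below 0.05, at least 2-fold), edgeR called 0 of the 8, and 0% of all genes tested. DESeq2 called 0 of the 8 as well, where it called 1.96% of all genes. With the unadjusted limits (p below 0.05 before adjustment, at least 2-fold), 0 of the 8 passed in edgeR, beside 4.66% of all genes. In none of the 10 did the groups separate, while every GB2 tumor was on one side of every PBS tumor in 15.3% of all genes. With a biological coefficient of variation of 40.5% over all genes and a standard error of at least 0.66 on the log2 scale for each of the 8, differences of the size seen here were not resolved with 3 tumors per group.

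Single tumors decided much of this, and PBS tumor 2 held the highest control counts of Gzmb and Prf1. Without it, the log2 fold change was 4.48 for Gzmb (SE 1.25, unadjusted p 0.0105, adjusted p 0.521 in edgeR) and 3.22 for Prf1 (SE 1.02, unadjusted p 0.0183, adjusted p 0.567). The PBS group then had 2 tumors, with counts of 0 to 4 for both genes. In that fit 2 of the 9 genes tested passed the unadjusted limits, beside 5.43% of all genes, and the groups did not overlap in 4 of the 10 (Gzma, Gzmb, Prf1 and Klrk1), beside 24.2% of all genes. Leaving out GB2 tumor 3 moved the values the other way, to a log2 fold change of 0.57 for Prf1 and of 0.31 for Klrk1. Leaving out PBS tumor 3 also lowered them, to 0.61 for Gzmb, 1.16 for Prf1 and 0.53 for Klrk1, and Nkg7 turned to -0.25.

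**Figure D2:**
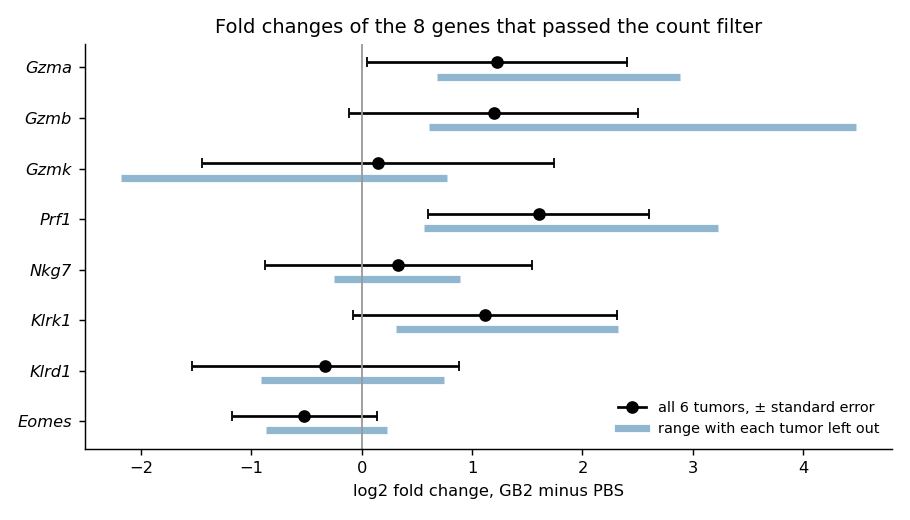
Log2 fold change, GB2 minus PBS, of the 8 genes tested (horizontal axis), with the value from all 6 tumors and its standard error in black and the range over 6 refits that leave out 1 tumor each in blue. The range stays above 0 for Gzma, Gzmb, Prf1 and Klrk1 and includes 0 for Gzmk, Nkg7, Klrd1 and Eomes.

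The spread within groups was wide and followed certain tumors. GB2 tumor 3 was the highest of the 6 in 7 of the 10 genes, PBS tumor 1 in 2 (Klrd1 and Eomes) and GB2 tumor 2 in Ncr1. PBS tumor 3 was the lowest or tied for the lowest in 7 genes, was at 0 in 6 and was under the detection limit in 9. PBS tumor 1 was under the limit in 7 genes, PBS tumor 2 in 2, and GB2 tumors 1, 2 and 3 in 5, 3 and 2. PBS tumor 3 also had the lowest sums of the 6 tumors for 8 macrophage markers (33.4 CPM), 5 neutrophil markers (1.92 CPM) and 3 keratinocyte markers (16.7 CPM), while the other tumors ranged from 50.3 to 206, from 2.76 to 11 and from 28.2 to 107 CPM. It was not low in every sum, with 0.863 CPM for B cell markers, the second highest of the 6 tumors. Its sums for mast cells (6.89 CPM), plasmacytoid dendritic cells (3.14 CPM) and epithelium (7.82 CPM) were the highest in PBS, but rested on few genes. Kit made up 88.1% of its mast cell counts, and the other 7 markers summed to 0.820 CPM, the lowest of the 6 tumors. Vil1 held 366 of its 553 epithelial counts. Epcam, Krt8, Krt18 and Cdh1 were at their lowest PBS value there, while Vil1 and Cdx2 were at their highest. Pacsin1 (120) and Cox6a2 (98) held most of its 222 plasmacytoid dendritic cell counts, with Siglech at 0 and Ccr9 at 4. The part of these differences in tissue content was not tested.

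T cell markers shared their upper and lower tumors with the granule genes, while their median log2 fold change had the opposite sign. The 10 markers (Cd3d, Cd3e, Cd3g, Cd8a, Cd8b1, Cd4, Cd2, Trac, Trbc1 and Trbc2) summed to 4.19, 7.63 and 0.566 CPM in PBS tumors 1, 2 and 3, against 1.05, 2.38 and 5.25 CPM for GB2 tumors 1, 2 and 3. The 5 granule genes summed to 0.795, 2.40 and 0.113 CPM among the controls, against 0.977, 1.67 and 3.83 CPM for GB2. PBS tumor 2 and GB2 tumor 3 were the upper 2 tumors by either sum, and PBS tumor 3 was the lowest by both. In PBS tumor 3, 7 of the 10 T cell markers were at 0, the CD3 chain genes among them. All 10 markers were tested, 2 with a positive and 8 with a negative log2 fold change, with a median of -0.42, and 0 passed the unadjusted limits. Relative to the summed counts of the 10 T cell markers, a ratio formed after the values were seen, Gzmb, Prf1 and Nkg7 were higher in every GB2 tumor than in every PBS tumor and Gzma and Gzmk were not, beside 1.46% of all genes tested. This denominator was 40 counts in PBS tumor 3, so a gene separated in this way only where it was also low in that tumor. The gaps were narrow for Prf1 (0.10 in PBS tumor 3, from 4 counts, against 0.141 in GB2 tumor 2) and for Nkg7 (0.113 in PBS tumor 1 against 0.135 in GB2 tumor 3). The share over all genes is given as a description and not as a test. Cd8a had the highest mean CPM of the list, at counts of 29, 136 and 4 among the controls, against 8, 41 and 88 for GB2.

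**Figure D3:**
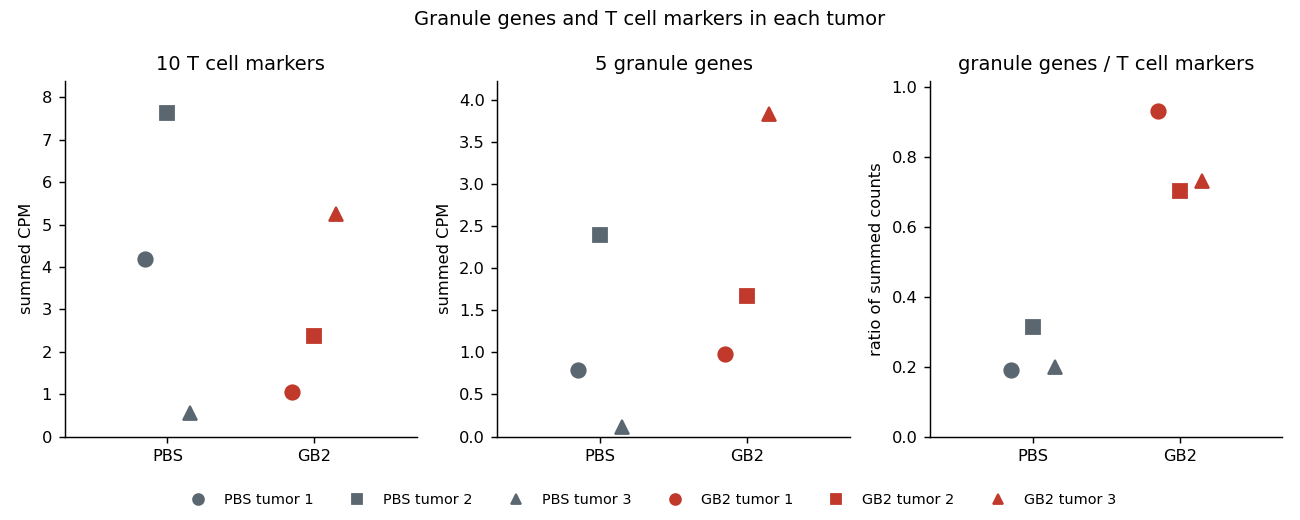
Summed CPM of 10 T cell markers (left) and of the 5 granule genes (middle), and the ratio of their summed counts (right), with 1 point per tumor. Both sums overlap between the groups, while the ratio is 0.190 to 0.314 for PBS and 0.702 to 0.932 for GB2.

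Mast cells can also express granzyme B, and the sums of their markers did not overlap between the groups. The 8 mast cell markers summed to 5.23 to 6.89 CPM in PBS tumors and to 13.2 to 16.9 CPM in GB2 tumors. Kit, which pigment cells also express, made up 66.3% to 88.1% of these counts in the PBS tumors and 56.2% to 72.6% in the GB2 tumors, and the other 7 markers summed to 0.820 to 1.76 CPM for PBS and 4.20 to 7.39 CPM for GB2. Of the 5 markers tested, 5 had a positive log2 fold change (median 1.78), and Hdc (1.78), Tpsb2 (3.68) and Mcpt4 (1.77) passed the unadjusted limits, with adjusted p values of 0.262, 0.611 and 0.710 in edgeR. Cma1, which encodes a chymase, and Fcer1a, the mast cell IgE receptor chain, were at 0 in every PBS tumor. PBS tumor 2, with 64 counts of Gzmb, had 383 counts of Kit, 46 of Hdc, 12 of Mcpt4, 8 of Cpa3 and 0 of Tpsb2, Tpsab1, Cma1 and Fcer1a. The 4 markers of plasmacytoid dendritic cells, another possible site of Gzmb expression, summed to 2.32 to 3.14 CPM in PBS tumors and to 2.85 to 3.21 CPM in GB2 tumors. Siglech was at counts of at most 8 in any tumor and Ccr9 at most 13, Cox6a2 was at 25 to 98, and Pacsin1, which neurons also express, was at 75 to 120 counts for PBS and 179 to 209 for GB2, without overlap. The part of mast cells and of plasmacytoid dendritic cells in the Gzmb values was not tested.

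The genes whose pattern most resembled that of the 8 tested members were taken by the Pearson correlation of log2 CPM with the members' mean standardized level over the 6 tumors, given as a description of 6 points that share library and depth. They were Gbp5, which encodes a guanylate-binding protein (r = 0.996), Asprv1, a protease of the skin (0.994), the predicted genes Gm12185 (0.994) and Gm43302 (0.993), and Ciita, the transactivator of MHC class II genes (0.992). Ciita had counts of 65, 206 and 10 among the controls, against 84, 181 and 475 for GB2. Gbp5 had counts of 90, 246 and 15 among the controls, against 126, 188 and 472 for GB2. In both, GB2 tumor 3 and PBS tumor 2 were the highest and PBS tumor 3 the lowest. Among the T cell markers, r ranged from 0.681 (Trbc2) to 0.900 (Trbc1).

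Of the other granzymes, 6 of 7 were analysed here and 3 were tested, each with a positive log2 fold change and 0 past the unadjusted limits. Gzmc had counts of 25, 11 and 0 among the controls, against 79, 27 and 12 for GB2 (log2 fold change 1.29, adjusted p 0.822), and Gzmm had a log2 fold change of 0.39. For Gzmc the highest tumor was GB2 tumor 1 (0.941 CPM), and for Gzmm it was PBS tumor 1 (0.778 CPM), followed by GB2 tumor 1 (0.738 CPM). Gzmd, Gzme and Gzmf were at 0 in all PBS tumors and at counts of at most 24 in any GB2 tumor. These genes are near copies of each other, so counts can be shared among them.

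Granule loading and release was represented by 8 genes, all tested, and 6 of them had a positive log2 fold change (median 0.29). Srgn, the proteoglycan that packs granzymes and is also made by myeloid cells, passed the unadjusted limits, with counts of 437, 393 and 180 among the controls, against 793, 952 and 1021 for GB2 (log2 fold change 1.09, SE 0.39, adjusted p 0.621 in edgeR). Every GB2 tumor was above every PBS tumor for Srgn. Lamp1, a lysosomal membrane protein present in most cells, and Rab27a, a GTPase of granule docking, had log2 fold changes of 0.05 and 0.30. Their mean levels were 517 and 246 CPM, against 0.538 CPM for Gzmb. The part of cytotoxic lymphocytes in the values of Lamp1 and Rab27a was not tested. Of 3 serpins of this system, 3 had a positive log2 fold change and 0 passed the unadjusted limits, with overlapping groups for Serpinb9b (0.57) and Serpina3n (0.23). Serpinb9, the granzyme B inhibitor, was at 5.64 ± 1.82 CPM (SD, n = 3) in PBS and 10.1 ± 2.02 CPM (SD, n = 3) in GB2 tumors, with a log2 fold change of 0.85 (adjusted p 0.636) that stayed under the limit of 2-fold.

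Of 21 further NK receptor genes, 16 were analysed here and 5 were tested, 3 with a positive and 2 with a negative log2 fold change. Cd244a, a receptor of the SLAM family found on NK cells and other leukocytes, passed the unadjusted limits with counts of 21, 12 and 15 among the controls, against 70, 38 and 46 for GB2 (log2 fold change 1.31, SE 0.54, adjusted p 0.705). Cd160 had a log2 fold change of -0.38. Among those not tested, Klrb1a had counts of 6, 8 and 3 in PBS tumors against 0 in every GB2 tumor, and Klre1 had 4, 16 and 4 against 0, 0 and 4. Both were lower in GB2 tumors without overlap in CPM, but only the 16 counts of Klre1 in PBS tumor 2 passed the detection limit. The signalling adaptors Tyrobp and Fcer1g, which serve NK receptors and are abundant in macrophages, had log2 fold changes of 1.71 and 1.23 and also passed the unadjusted limits (adjusted p 0.352 and 0.504). Hcst, the adaptor of NKG2D, had counts of 7, 0 and 3 among the controls, against 0, 9 and 14 for GB2. Cd247, the zeta chain of the T cell receptor and of NK receptors, had 4, 2 and 0, against 9, 24 and 22. Its groups did not overlap, but 4 of its 6 values were under the detection limit, and the nearest tumors of the groups were at 4 and 9 counts. Neither passed the filter for testing. All 8 macrophage markers had a positive log2 fold change (median 1.87) and 7 passed the unadjusted limits, with sums of 33.4 to 53.2 CPM in PBS and of 113 to 206 CPM in GB2 tumors. The part of macrophages in the values of Tyrobp, Fcer1g and Srgn was not tested.

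Of 6 further transcription factors of these lineages, 4 were tested, 3 with a positive and 1 with a negative log2 fold change, and 1 passed the unadjusted limits. This was Prdm1, which encodes BLIMP-1 (log2 fold change 1.29, adjusted p 0.612). Nfil3, with the highest mean CPM of the list, had a log2 fold change of -0.24. Runx3 had counts of 25, 56 and 28 among the controls, against 71, 58 and 85 for GB2 (log2 fold change 0.65, adjusted p 0.781). Tbx21, the T-box relative of Eomes, had counts of 0, 16 and 0 among the controls, against 0, 0 and 7 for GB2 and was not tested. Among ligands, 7 of 11 were analysed here, 5 had a positive and 2 a negative log2 fold change and 0 passed the unadjusted limits. Ulbp1, a ligand of NKG2D, was at 29.9 ± 10.2 CPM (SD, n = 3) in PBS and 37.4 ± 16.7 CPM (SD, n = 3) in GB2 tumors. H2-T23, whose product is read by CD94 with NKG2A, had a log2 fold change of -0.27.

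Ifng, the cytokine these cells release, had counts of 4, 20 and 0 among the controls, against 0, 0 and 8 for GB2, and Fasl was seen in PBS tumor 2 alone, at 17 counts. Neither was tested. Ccl5, a chemokine of activated lymphocytes, was lower in every GB2 tumor, at 130, 131 and 128 counts against 152, 267 and 157 in PBS tumors, with a log2 fold change of -0.89 (SE 0.32, unadjusted p 0.026, adjusted p 0.625) that was under 2-fold. Tnfsf10, the death ligand TRAIL, had a log2 fold change of 0.94 with overlapping groups. Of 8 genes of activating cytokines and their receptors, 5 were tested, 4 had a positive log2 fold change and 0 passed the unadjusted limits. Il18 had a log2 fold change of -0.52 (adjusted p 0.757 in edgeR) and Il15ra one of 0.27. Every GB2 tumor (3.37 to 4.50 CPM) was below every PBS tumor (4.98 to 6.34 CPM) for Il18, while groups separated in 15.3% of all genes.

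**Figure D4:**
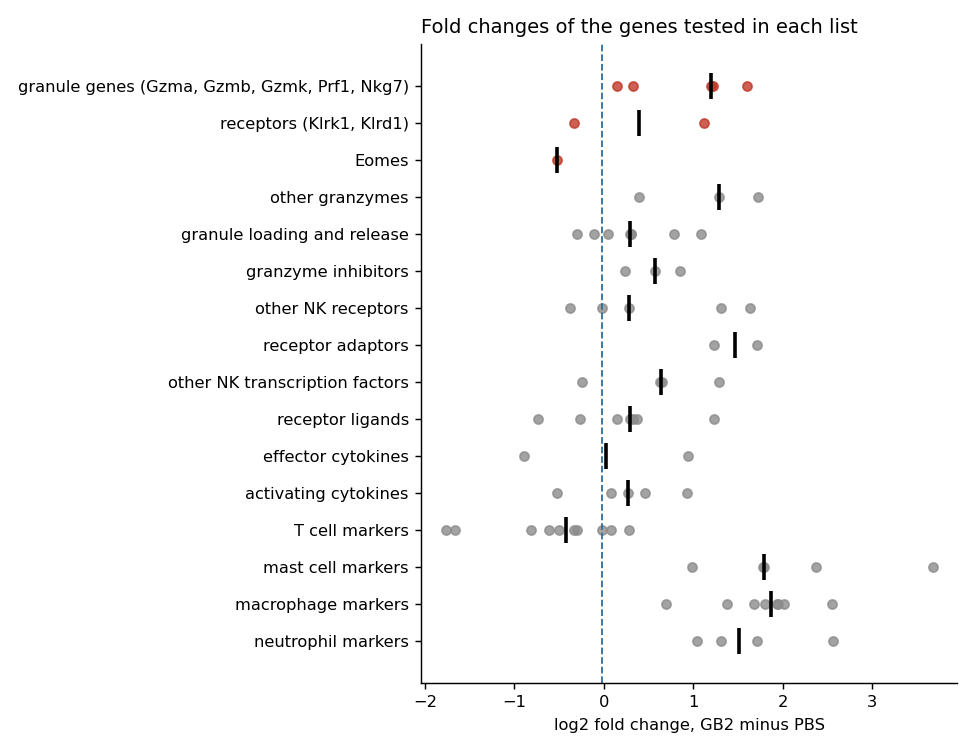
Log2 fold change, GB2 minus PBS (horizontal axis), of every gene tested in each list (rows), with the genes of the granule, receptor and Eomes rows in red and other genes in grey. Black bars are list medians and the dashed line is the median of all 19602 genes tested (-0.02). The granule genes have a median of 1.20, the T cell markers one of -0.42 and the macrophage markers one of 1.87.

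The remaining lists of other cells were B cells (2 of 4 markers tested, median log2 fold change 0.17), plasmacytoid dendritic cells (3 of 4, 0.32), neutrophils (4 of 5, 1.51), epithelium (5 of 7, 0.50) and skin (3 of 3, 0.91). Of these, S100a8, S100a9 and Csf3r of the neutrophil list and Epcam of the epithelial list passed the unadjusted limits, with log2 fold changes of 1.71, 1.31, 2.56 and 1.64 and adjusted p values of at least 0.190. Ly6g was at 0 in all 6 tumors and Cdx2 in 5 of them.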

How the data were processed

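Poly-A selected, dUTP-stranded, paired-end libraries of 3 PBS and 3 GB2 tumors were analysed. Per the labels, the submitters' processing notes name cutadapt 1.9, HISAT2 2.2.1, StringTie 2.1.6, DESeq2, edgeR and the build mm10, with no role, and strand use in counting is not given in the sources used here. The authors deposited estimated counts (whole numbers, unscaled) and FPKM values, which the authors scaled by length and library. The counts held 7017 values of 4 against 2984 of 3 and 2017 of 5, but also 5446 of 1 and 4996 of 2. Of 31999 gene IDs shared with GENCODE's GRCm38 annotation 1.86% had the same position, and 0 of the 10 members, so gene positions are those of the table and its build is not named. All per-sample columns were used.

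In R 4.3.3, genes were kept by filterByExpr (minimum count 10), which left 19602, scaled by TMM, and compared by the quasi-likelihood test of edgeR 4.0.16 on all 6 tumors, with Benjamini-Hochberg adjustment over all genes tested. A called gene had an adjusted p below 0.05 with at least a 2-fold difference. CPM use TMM-scaled library sizes. The SE was derived from the test statistic, and correlations took log2 CPM with 2 as prior count. Named genes were the 10 members, list genes past the unadjusted limits or else the 2 most abundant of a list, and the 5 most correlated genes, and other genes named were picked after their values were seen. The members and lists were chosen with earlier results of these data known. Alternatives were DESeq2 1.42.0, RLE factors, no filter, a replicate block, counts divided by 4, limma 3.58.1 on log2(FPKM + 1) and log2(FPKM + 0.1), and each tumor left out. The fits were tested on simulated data, and no outcome of that check is given here. No sequencing batch is given. Intervals and detection limits cover counting error only and rest on the approximate unit of 4 counts per read pair.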

Additional observations from a re-analysis of the deposited data

How the results depend on the processing

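No alternative called any of the 10 genes at the adjusted limits, with adjusted p values of at least 0.521 for the members in every fit, and Gzma, Gzmb, Prf1 and Klrk1 had a positive log2 fold change wherever they were tested. With counts divided by 4, Gzmb was the only member left to test. Over all genes the number called was 0 in edgeR and 385 in DESeq2. The number of genes of the other lists past the unadjusted limits was 19, 11 in limma on log2(FPKM + 1), 25 without a filter, 21 in DESeq2, 16 with counts divided by 4 and 15 to 26 with 1 tumor left out. In the main fit, where the number was 19, 7 of these were macrophage, 3 neutrophil and 3 mast cell markers. The 19 are a number of genes and not a share, while 4.66% of all genes passed these limits in that fit. The number of genes tested ran from 15869 (counts divided by 4) to 31840 (no filter), so these counts are not directly comparable. With 1 tumor left out, 0 to 2 members passed the unadjusted limits and 0 to 4 had groups that did not overlap. The log2 fold change then ran from -2.18 to 0.78 for Gzmk, from -0.25 to 0.89 for Nkg7, from -0.91 to 0.75 for Klrd1 and from -0.87 to 0.23 for Eomes, so their direction rested on single tumors. For the 4 genes that stayed positive, the size did so. It ran from 0.68 to 2.88 for Gzma, 0.61 to 4.48 for Gzmb, 0.57 to 3.22 for Prf1 and 0.31 to 2.32 for Klrk1. Gzmk turned to -1.07 and Klrd1 to 0.44 with the tumor number as a replicate block, and to -0.0056 and 0.032 in limma on log2(FPKM + 0.1), and the cause was not tested. Pairing by tumor number was not borne out, since deviations from the group means of tumors with the same number correlated at 0.03, 0.15 and -0.24 across genes. The block left the count of called members at 0. At up to 25.5 read pairs per gene and tumor, counting error alone is large: the 16 read pairs of Gzmb in PBS tumor 2 have an exact 95% Poisson interval of 9.15 to 26.0.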

Other observations

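Although neither the granule genes nor the T cell markers separated the groups, their ratio did. This ratio was formed after the values were seen, so it is given without a test. Gzma, Gzmb, Gzmk, Prf1 and Nkg7 together had 47, 169 and 8 counts in the 3 controls, beside 248, 538 and 40 counts of the 10 T cell markers. After GB2 they had 82, 139 and 326 counts, beside 88, 198 and 446. The ratio was 0.190, 0.314 and 0.200 for PBS, against 0.932, 0.702 and 0.731 for GB2. Every GB2 tumor was above every PBS tumor, including PBS tumor 2, the tumor with the most T cell marker counts.

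In read pairs, the granule genes made up 16.2% (exact 95% binomial interval 8.67 to 26.6), 23.9% (17.8 to 30.9) and 16.7% (2.09 to 48.4) of the pairs of both lists in the PBS tumors. In the GB2 tumors they made up 47.6% (32.0 to 63.6), 41.2% (30.6 to 52.4) and 42.3% (35.2 to 49.6). These intervals cover counting error only and not the spread between tumors, and the value of PBS tumor 3 rests on 2 granule and 10 T cell read pairs.

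Gzmb carried much of the difference but not all of it. Without Gzmb the ratio was 0.173, 0.195 and 0.200 for PBS, against 0.455, 0.470 and 0.502 for GB2, and the mean difference fell from 0.554 to 0.286. On the FPKM scale the ratio was 0.243, 0.397 and 0.209 for PBS, against 0.979, 1.03 and 0.756 for GB2. Relative to the 3 CD3 chain genes alone, the ratio was 0.758 in PBS tumor 1, 1.47 in PBS tumor 2, and 10.2, 3.97 and 3.66 for GB2, but PBS tumor 3 had 8 granule counts and 0 CD3 counts, so it has no ratio and the separation cannot be stated for it. When single tumors were left out, the mean difference lay between 0.482 and 0.597. The summed markers of mast cells, which can carry Gzmb, were higher in all 3 GB2 tumors, although Mcpt4 and Tpsab1 overlapped between the groups. The summed markers of macrophages were also higher in all 3, and the part of either in this ratio was not tested.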
